A study of Mus musculus with 25 samples.

Results

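The genes described here are the 7 that set the phosphorylation state of the pyruvate dehydrogenase complex: the kinases Pdk1, Pdk2, Pdk3 and Pdk4, the phosphatase catalytic subunits Pdp1 and Pdp2, and the phosphatase regulatory subunit Pdpr. They were chosen by symbol, for their role, and are 7 of the 56941 genes in the deposited count table. All 7 passed the filter on low counts, which left 17682 tested genes. RNA was sequenced from 25 mouse hearts, after removal of ribosomal RNA, in a study of lactate metabolism during cardiac hypertrophy. Hearts were labelled WT or MCT1KO, where MCT1 is the lactate and pyruvate transporter encoded by Slc16a1. Within each genotype they were labelled no pump, saline or Ang/PE, the last being the neurohormonal agonists that the design text uses to cause hypertrophy. The groups held 4 WT and 3 MCT1KO hearts without a pump, 6 WT and 4 MCT1KO hearts with saline, and 3 WT and 5 MCT1KO hearts with Ang/PE. Strain, sex, age, the tissue and method of the Slc16a1 deletion, the doses and the infusion time are not given in the sources used here. The labels name 25 hearts but do not say how litters or days were shared, so p-values measure the spread between these hearts.

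Pyruvate dehydrogenase turns pyruvate from glycolysis or lactate into acetyl-CoA inside mitochondria. The PDK kinases phosphorylate the complex and switch it off, and the PDP phosphatases remove the phosphate and switch it on. In the heart, PDK4 is known as the isoform induced by fasting, fatty acids and PPAR signalling, PDK2 as the widely expressed isoform, PDK1 as a target of hypoxia-inducible factor, and PDK3 as an isoform found mainly in testis and brain. PDP1 is the calcium-stimulated phosphatase of muscle, PDP2 is the insulin-responsive one, and PDPR binds PDP1 and lowers its activity. These are transcript data, and neither phosphorylation nor enzyme activity was measured.

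The 250 bases upstream of the start site were read for 6 of the 7 genes from a RefSeq table on GRCm38.p6, which has Pdk1, Pdk2, Pdk3, Pdk4, Pdp2 and Pdpr. Pdp1 was not matched. Pdk1 and Pdk2 each had 2 start sites listed, of which the most upstream was used. The windows of Pdk2, Pdpr, Pdp2 and Pdk1 are shown because 5 of the 6 pairs among these genes were related across hearts, and that of Pdk4 as the most variable member. They lie at chr11:95041372-95041621 on the minus strand (Pdk2), chr8:111094495-111094744 on the plus strand (Pdpr), chr8:104591222-104591471 on the plus strand (Pdp2), chr2:71872974-71873223 on the plus strand (Pdk1) and chr6:5496279-5496528 on the minus strand (Pdk4). Each is written 5′ to 3′ towards the start site, with matches to CACGTG, and to CCAAT on either strand, in capitals.
Pdk2: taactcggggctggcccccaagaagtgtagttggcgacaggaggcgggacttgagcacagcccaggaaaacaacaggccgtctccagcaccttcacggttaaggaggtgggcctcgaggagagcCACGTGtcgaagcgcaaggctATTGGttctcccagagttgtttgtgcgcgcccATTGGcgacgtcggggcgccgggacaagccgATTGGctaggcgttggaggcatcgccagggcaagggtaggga
Pdpr: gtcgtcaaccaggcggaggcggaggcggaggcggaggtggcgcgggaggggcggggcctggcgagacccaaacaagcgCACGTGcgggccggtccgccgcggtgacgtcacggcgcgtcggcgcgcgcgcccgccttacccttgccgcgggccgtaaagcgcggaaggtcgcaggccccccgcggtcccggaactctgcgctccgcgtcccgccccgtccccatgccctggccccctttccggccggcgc
Pdp2: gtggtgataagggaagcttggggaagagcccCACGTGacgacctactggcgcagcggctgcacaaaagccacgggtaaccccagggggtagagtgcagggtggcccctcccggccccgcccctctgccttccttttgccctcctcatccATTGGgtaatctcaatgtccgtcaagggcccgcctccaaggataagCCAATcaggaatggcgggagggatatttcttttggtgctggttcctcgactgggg
Pdk1: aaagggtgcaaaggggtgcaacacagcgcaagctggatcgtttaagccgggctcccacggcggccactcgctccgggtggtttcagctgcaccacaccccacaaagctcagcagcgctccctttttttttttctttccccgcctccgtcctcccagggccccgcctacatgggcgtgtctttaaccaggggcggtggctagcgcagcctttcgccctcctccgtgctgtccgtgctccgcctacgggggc
Pdk4: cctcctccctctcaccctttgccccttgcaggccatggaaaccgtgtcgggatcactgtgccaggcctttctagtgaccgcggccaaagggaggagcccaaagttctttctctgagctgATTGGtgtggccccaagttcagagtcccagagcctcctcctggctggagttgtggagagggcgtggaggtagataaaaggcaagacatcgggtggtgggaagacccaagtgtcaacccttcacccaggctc
The E-box CACGTG, which reads the same on both strands, was found in Pdk2 from 126 to 121 bases, in Pdp2 from 219 to 214 bases and in Pdpr from 172 to 167 bases upstream. Of all 32851 windows of this length in the table, 6.02% held it. CCAAT was found on either strand 3 times in Pdk2, 2 times in Pdp2 and 1 time each in Pdk3 and Pdk4, and in 33.9% of all windows. The hypoxia response core ACGTG, which lies within the E-box on both strands, was found in 4 of the 6 windows, the same 3 and that of Pdk3, and in 16.6% of all windows. None of the 6 windows held, on either strand, AGGTCA (14.02% of all windows), the core site of PPAR and estrogen-related receptors, or its spaced direct repeat, the PPAR response element (0.033%). None held GTAAACA of FOXO factors (3.17%), the full glucocorticoid response element (0.009%) or the TATA box letters TATAAA (12.4%). These are matches of letters in short windows, and no binding was measured. The Pdpr window was the richest in GC of those shown, with 78.4% GC and 43 CpG, and that of Pdk4 had 58.8% GC and 6 CpG, against medians of 52.4% and 6 over all windows.

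The total count per heart ran from 12216704 to 24880683, with a median of 17375875. Depth went with treatment: every heart without a pump had at least 18382102 counts, and every Ang/PE heart at most 16610416. Mitochondrially encoded genes held 14.8% to 18.4% of counts in WT hearts without a pump and 8.94% to 14.8% in WT saline hearts. Values are given in CPM, read counts scaled to the TMM-normalised size of each library. Slc16a1 was checked first. In WT hearts it had mean CPM ± SD of 203 ± 36.8 without a pump (4 hearts), 199 ± 29.9 with saline (6 hearts) and 214 ± 10.6 with Ang/PE (3 hearts). In labelled MCT1KO hearts it had 199.8 ± 29.6 (3 hearts), 158 ± 26.02 (4 hearts) and 189.8 ± 21.9 (5 hearts). Its log2 fold changes between genotypes were -0.02 (SE 0.15), -0.33 (SE 0.13) and -0.18 (SE 0.15), with adjusted p of 0.976, 0.219 and 0.807 (edgeR). The labels do not say which part of the gene was deleted or in which cells, so these counts do not check the label, and the group is called labelled MCT1KO throughout. All 5 cardiomyocyte markers (Myh6, Tnnt2, Tnni3, Actc1 and Ryr2) were abundant in every heart. Some saline hearts stood apart in markers of other tissue. The summed level of the 3 atrial muscle genes Myl4, Myl7 and Sln ran from 2.03 to 1136 CPM in WT and from 1.4996 to 3679 CPM in labelled MCT1KO saline hearts, and was at most 5.73 CPM in the other 4 groups. The sum of the 5 adipocyte genes Adipoq, Plin1, Cidec, Cidea and Ucp1 reached 1216 CPM in the same labelled MCT1KO saline heart (replicate 4), and was at most 62.0 CPM in every other heart. Sln had no count in 11 hearts and Ucp1 none in 15.

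Per length of exon, Pdk4 and Pdk2 were the main kinases of these hearts. Medians over the 25 hearts were 146 CPM per kb for Pdk4 and 114 for Pdk2, followed by 30.02 for Pdpr, 28.2 for Pdk1, 9.82 for Pdp1, 8.32 for Pdp2 and 0.982 for Pdk3. Pdp1 and Pdp2 did not separate in this order, since their ranges over hearts, 7.71 to 12.2 and 3.72 to 13.4 CPM per kb, overlapped, and the ranges of Pdk1 (15.99 to 33.9) and Pdpr (20.6 to 42.2) overlapped too. As shares of the summed kinase CPM per kb, Pdk4 made up 51.0 ± 13.1% (SD, n = 25), Pdk2 39.1 ± 10.7%, Pdk1 9.46 ± 2.34% and Pdk3 0.438 ± 0.310%. The Pdk4 share was above that of Pdk2 in 18 hearts and below it in 7. It was highest on average in WT hearts without a pump (63.4 ± 5.56%, n = 4) and lowest in labelled MCT1KO saline hearts (44.2 ± 20.5%, n = 4). Its extremes over all hearts were 17.02%, in labelled MCT1KO saline replicate 1, and 77.8%, in WT Ang/PE replicate 3. In bulk RNA, fewer cells of a type and less RNA per cell cannot be told apart.

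**Figure D1:**
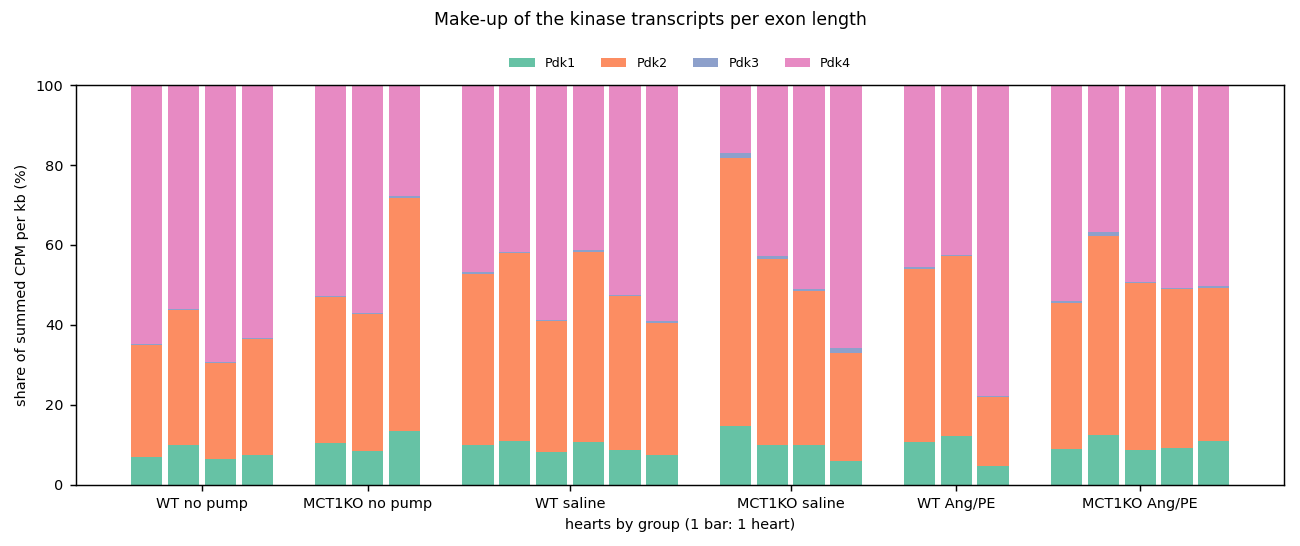
Share of each kinase gene in the summed CPM per kb of the 4 kinase genes (y axis, percent), with 1 stacked bar per heart and hearts ordered by group along the x axis. Pdk4 and Pdk2 fill most of every bar, and the Pdk4 share runs from 17.02% to 77.8%.

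Pdk4, the kinase that PPAR signalling induces, was the most variable member. WT hearts without a pump held 1110.3, 512, 856 and 751 CPM (mean 807 ± 248, SD), and labelled MCT1KO hearts without a pump held 511, 788 and 201 CPM (500.1 ± 294). With saline, the lowest, median and highest WT hearts held 394, 549 and 797 CPM (559.5 ± 145, n = 6), and the labelled MCT1KO hearts held 90.6, 328, 447 and 631 CPM (374 ± 226). With Ang/PE, WT hearts held 454, 376 and 1681 CPM (837 ± 732), and labelled MCT1KO hearts held 694, 248, 524, 547 and 415 CPM (485 ± 166). The single heart at 1681 CPM sets the high mean of its group, and every pair of groups overlapped. Over all hearts the range was 18.6-fold. The biological coefficient of variation of Pdk4 around the group means was 49.2%, above that of 96.3% of all tested genes, whose median was 16.2%.

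Pdk2, the widely expressed kinase, ranged 1.93-fold over the 25 hearts. Without a pump, WT hearts held 431, 279, 266 and 311 CPM (322 ± 75.7), and labelled MCT1KO hearts 319, 427 and 382 CPM (376 ± 54.1). With saline, WT hearts ran from 314 through a median of 404 to 448 CPM (396 ± 44.9, n = 6), and labelled MCT1KO hearts held 322, 321, 305 and 233 CPM (295 ± 42.5). With Ang/PE, WT hearts held 389.8, 361 and 337 CPM (363 ± 26.4), and labelled MCT1KO hearts 423, 302, 401, 386 and 286 CPM (359.6 ± 61.6). Among saline hearts, 5 of 6 WT hearts lay above every labelled MCT1KO heart, and the groups overlapped through the lowest WT heart.

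Pdk1, the hypoxia-responsive kinase, ranged 2.12-fold. Without a pump, WT hearts held 264, 199, 178 and 195 CPM (209 ± 37.7), and labelled MCT1KO hearts 225, 255 and 217 CPM (232 ± 19.7). With saline, WT hearts ran from 174 through a median of 229 to 259 CPM (226 ± 28.8, n = 6), and labelled MCT1KO hearts held 173, 169.7, 189.6 and 124 CPM (164 ± 27.9). With Ang/PE, WT hearts held 234, 237 and 223 CPM (231 ± 7.38), and labelled MCT1KO hearts 253, 186, 204, 221 and 197 CPM (213 ± 26.1). The lowest value, 124 CPM, came from labelled MCT1KO saline replicate 4, which was also the lowest of all hearts in Pdk2 and the highest in Pdk3.

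Pdk3 was the least abundant member, with a lowest count of 22, found in 2 libraries. WT hearts without a pump held 1.85, 2.44, 2.20 and 1.501 CPM (2.00 ± 0.408), and labelled MCT1KO hearts without a pump held 1.67, 1.29 and 2.68 CPM (1.88 ± 0.720). With saline, WT hearts ran from 1.82 through a median of 2.79 to 5.14 CPM (3.00 ± 1.22, n = 6), and labelled MCT1KO hearts held 4.54, 3.73, 2.25 and 8.61 CPM (4.78 ± 2.72). Ang/PE hearts lay between 1.75 and 5.24 CPM. The high labelled MCT1KO saline mean leaned on replicate 4, the heart with most atrial and adipocyte marker RNA.

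The phosphatase subunits were less abundant per length than Pdk4 and Pdk2. Pdp1, the calcium-stimulated subunit, was the steadiest member: it ran from 34.7 to 55.0 CPM over all hearts (1.58-fold), with group means between 40.2 and 48.4 CPM and a biological coefficient of variation of 11.1%. Pdp2, the insulin-responsive subunit, ran from 21.2 to 76.1 CPM (3.60-fold). Its highest group mean was 61.1 ± 9.95 CPM in WT saline hearts (n = 6) and its lowest were 39.4 ± 17.9 CPM (n = 3) and 39.0 ± 12.2 CPM (n = 5) in WT and labelled MCT1KO Ang/PE hearts, and these groups overlapped. The regulatory subunit Pdpr held 173, 132, 103 and 135 CPM in WT hearts without a pump (136 ± 28.4) and 149, 198 and 171 CPM in labelled MCT1KO hearts without a pump (173 ± 24.8). With saline, Pdpr ran from 144 through a median of 181 to 212 CPM in WT hearts (181 ± 23.3, n = 6) and held 139, 135, 131 and 114 CPM in labelled MCT1KO hearts (129.6 ± 10.9), so that these groups did not overlap. With Ang/PE, Pdpr held 152, 151 and 121 CPM in WT hearts (141 ± 17.5) and 173, 127, 160.0, 170.4 and 134 CPM in labelled MCT1KO hearts (153 ± 21.1), which overlapped. Exons of Pdpr share up to 90 bases with 9430091E24Rik on the opposite strand in GENCODE M21, and the strand setting of the counting is not given in the sources used here.

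**Figure D2:**
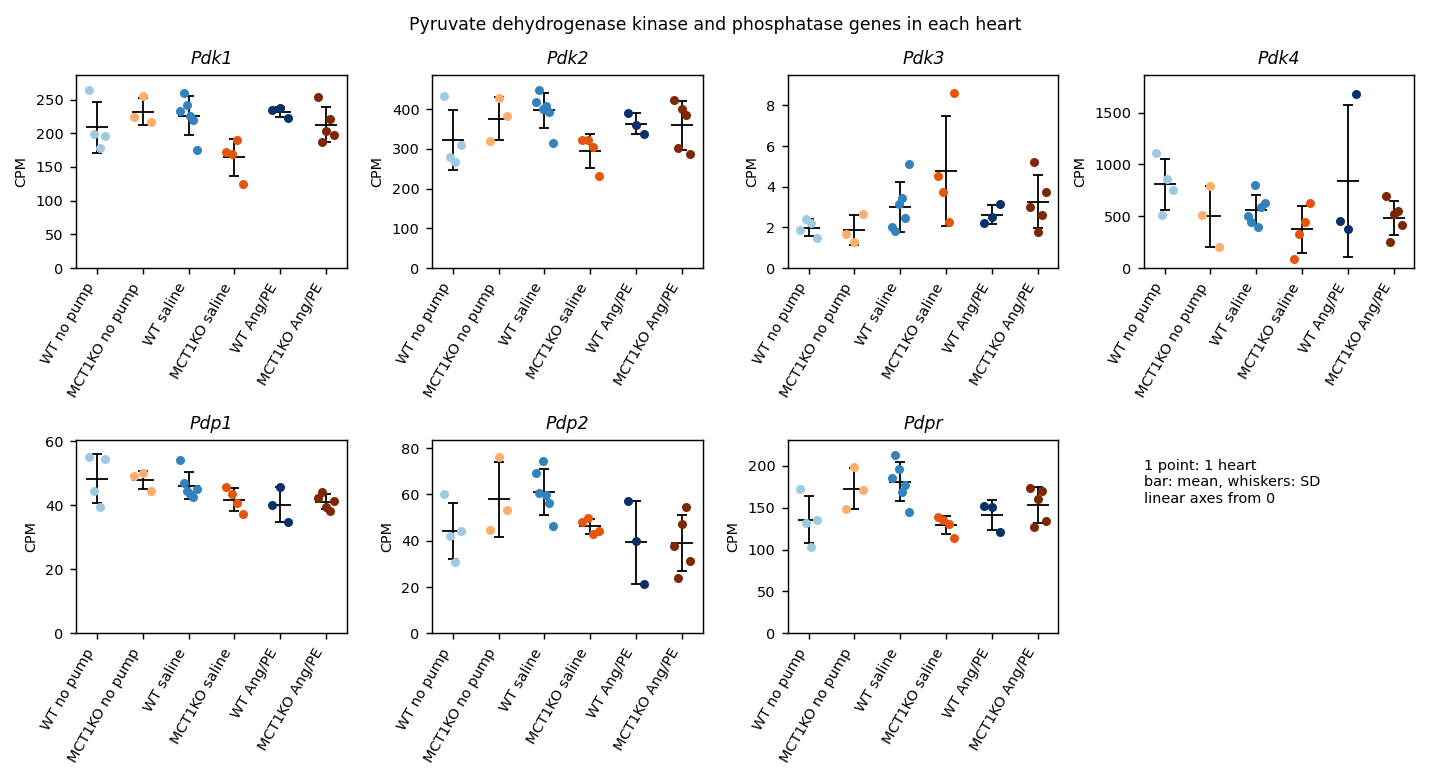
CPM (y axis, linear from 0) of each member in the 6 groups (x axis, MCT1KO as labelled), with 1 point per heart, a bar at the mean and whiskers of 1 SD. The Pdk4 panel holds a single WT Ang/PE heart at 1681 CPM, and the Pdpr panel shows labelled MCT1KO saline hearts, 114 to 139 CPM, below all WT saline hearts, 144 to 212 CPM.

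The comparison of labelled MCT1KO with WT asked what the label changes within each treatment, and no member passed an adjusted p of 0.05 in any of its 3 forms. With saline, edgeR called 0 of 7 members and 0% of all tested genes. At an unadjusted p under 0.05 it counted 4 of the 7 members against 17% of all tested genes. Of these members, 3 were lower, against 8.62% of tested genes, and 1 was higher, against 8.43%. Pdpr had a log2 fold change of -0.48 (SE 0.13, 95% CI -0.75 to -0.21, adjusted p = 0.125), and was the 1 member whose groups did not overlap, as for 1.82% of all tested genes in this direction. Pdk1 had -0.46 (SE 0.12, 95% CI -0.72 to -0.20, adjusted p = 0.125) and Pdk2 had -0.43 (SE 0.14, 95% CI -0.72 to -0.13, adjusted p = 0.17). Pdk3 had 0.67 (SE 0.32, 95% CI 0.00 to 1.33, adjusted p = 0.293). The median over the 7 members was -0.43, against 0.03 over all tested genes. DESeq2 called Pdk1 alone (adjusted p = 0.0462) and 0.799% of the genes to which it gave an adjusted p. All shares given for DESeq2 are over such genes, from 3626 to 17653 depending on the comparison.

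Marker levels and single libraries moved with the saline contrast. Summed cardiomyocyte markers ran from 47611 to 57564 CPM in WT and from 30890 to 48420 CPM in labelled MCT1KO saline hearts, and 0 of the 5 markers passed the test (median log2 fold change -0.34). A cardiomyocyte score, the mean log2 CPM of these 5 markers and not their sum, was used as a covariate, a setting added after the data were seen. With it the log2 fold changes were -0.16 for Pdk1, -0.16 for Pdpr, -0.07 for Pdk2 and -0.04 for Pdk3. With atrial and adipocyte scores as covariates they were -0.29, -0.34, -0.28 and 0.04. Without labelled MCT1KO saline replicate 4 they were -0.34 for Pdk1, -0.32 for Pdk2, -0.41 for Pdpr and 0.23 for Pdk3, each with adjusted p of at least 0.709 (edgeR). Without labelled MCT1KO saline replicate 3 Pdk1 passed the threshold, at -0.53 (adjusted p = 0.0472), as did 250 genes in all.

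Without a pump, edgeR called 0 of 7 members and 0% of all tested genes between genotypes. DESeq2 called 0 of the 6 members to which it gave an adjusted p, all but Pdk3. It called 87 of the 3626 genes to which it gave one (2.4%). The 1 member at an unadjusted p under 0.05, against 12.2% of tested genes (5.46% in this direction), was Pdpr, with a log2 fold change of 0.35 (SE 0.15, 95% CI 0.04 to 0.66, adjusted p = 0.366). With Ang/PE, edgeR and DESeq2 each called 0 of 7 members, against 0% and 0.0283% of tested genes, and 0 members reached an unadjusted p under 0.05 against 6.92% of tested genes. The Pdk4 log2 fold changes between genotypes were -0.69 (SE 0.56, 95% CI -1.86 to 0.48) without a pump, -0.58 (SE 0.48, 95% CI -1.57 to 0.41) with saline and -0.79 (SE 0.52, 95% CI -1.87 to 0.30) with Ang/PE, at adjusted p of 0.662, 0.549 and 0.765 (edgeR). Each of these intervals holds both lower and higher Pdk4 levels than in WT. The Ang/PE value was 0.21 without WT Ang/PE replicate 3, the heart with 1681 CPM.

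Saline against no pump asked what the pump and vehicle change. In WT hearts edgeR called 0 of 7 members against 6.61% of all tested genes, and counted 2 members, both higher, at an unadjusted p under 0.05 against 24.3% of tested genes (11.4% higher). Pdpr had a log2 fold change of 0.41 (SE 0.13, 95% CI 0.15 to 0.68, adjusted p = 0.0535), just outside the threshold, and Pdk2 had 0.30 (SE 0.14, 95% CI 0.01 to 0.59, adjusted p = 0.192). DESeq2 called Pdpr (adjusted p = 0.0249), 1 of 7 members, against 13.7% of the 14228 genes to which it gave an adjusted p. Without WT no pump replicate 1, the WT heart with the highest Pdk1, Pdk2, Pdpr and Pdk4 in that group, edgeR called both Pdpr (0.54, adjusted p = 0.0108) and Pdk2 (0.47, adjusted p = 0.028), against 12.7% of tested genes. The summed cardiomyocyte markers, of which Myh6 was the largest part, ran from 32897 to 50128 CPM without a pump. With saline they ran from 47611 to 57564 CPM. Of the 5, 1 passed the test (Ryr2, 0.48, SE 0.15, edgeR adjusted p = 0.0492), a call kept in 2 of 12 alternatives. Myh6 had 0.56 (SE 0.17), Tnnt2 0.21 (SE 0.12) and Actc1 0.14 (SE 0.18), while Tnni3 went the other way, with -0.13 (SE 0.17). All 3 atrial markers were called higher in this step (adjusted p from 0.0166 to 0.0234, edgeR), with Myl4 at 1.58 ± 0.122 CPM without a pump and 213 ± 234 CPM with saline. With atrial and adipocyte scores as covariates 0% of tested genes were called, and the values were 0.47 for Pdpr and 0.37 for Pdk2. With the cardiomyocyte score as a covariate the values were 0.20 for Pdpr and 0.05 for Pdk2. Pdk4 had -0.53 (SE 0.46, 95% CI -1.49 to 0.44, adjusted p = 0.524).

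In labelled MCT1KO hearts the same step gave 0 of 7 members called by edgeR, against 0.00566% of tested genes, and 0 of 7 called by DESeq2, against 1.18%. At an unadjusted p under 0.05 there were 4 members against 12.1% of tested genes, with 3 lower (4.68% of tested genes) and 1 higher (7.43%). Pdk1 had a log2 fold change of -0.50 (SE 0.14, 95% CI -0.80 to -0.20, adjusted p = 0.166), Pdpr -0.41 (SE 0.15, adjusted p = 0.266) and Pdk2 -0.35 (SE 0.17, adjusted p = 0.398). The groups did not overlap for Pdk1 and Pdpr, as for 3.93% of tested genes in this direction. Pdk3 had 1.33 (SE 0.40, 95% CI 0.50 to 2.17, adjusted p = 0.183). Without labelled MCT1KO saline replicate 4 these were -0.38 for Pdk1, -0.35 for Pdpr, -0.24 for Pdk2 and 0.89 for Pdk3. With atrial and adipocyte marker scores as covariates they were -0.17 for Pdk1, -0.19 for Pdpr, -0.11 for Pdk2 and -0.04 for Pdk3. Without labelled MCT1KO saline replicate 3, the saline heart with the least atrial and adipocyte marker RNA, edgeR called Pdk1 (-0.57, adjusted p = 0.0362) and Pdk3 (1.57, adjusted p = 0.0279), against 3.54% of tested genes. Pdk4 had -0.42 (SE 0.55, 95% CI -1.57 to 0.73, adjusted p = 0.818).

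The difference between these steps, an interaction of genotype label with saline against no pump, was tested in the same model. It asks whether the step differed between the genotype labels. In it edgeR called 0 of 7 members, against 0.00566% of tested genes, and 4 members, all lower in the labelled MCT1KO step, had an unadjusted p under 0.05 against 17.2% of tested genes (8.35% lower). Pdpr had a log2 interaction of -0.83 (SE 0.20, 95% CI -1.23 to -0.42, adjusted p = 0.112), Pdk2 -0.65 (SE 0.22, adjusted p = 0.151), Pdk1 -0.61 (SE 0.19, adjusted p = 0.14) and Pdp2 -0.79 (SE 0.37, adjusted p = 0.278). The median over the 7 members was -0.61, against 0.03 over all tested genes. DESeq2 called Pdpr (adjusted p = 0.0167) and 3.05% of the 12176 genes to which it gave an adjusted p. Without WT no pump replicate 1 edgeR called Pdpr, Pdk2 and Pdk1 (-0.95, -0.81 and -0.73, adjusted p from 0.0218 to 0.0327), against 3.76% of tested genes. The cardiomyocyte markers had a median interaction of -0.44. With the cardiomyocyte score as a covariate the values were -0.42 for Pdpr, -0.20 for Pdk2, -0.23 for Pdk1 and -0.23 for Pdp2.

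Ang/PE against saline asked about the hypertrophic stimulus. In WT hearts edgeR called 0 of 7 members against 0.017% of tested genes, DESeq2 called 0 of 7 against 4.11%, and 2 members, both lower, had an unadjusted p under 0.05 against 19.1% of tested genes (9.58% lower). These were Pdp2, with a log2 fold change of -0.63 (SE 0.27, 95% CI -1.19 to -0.07, adjusted p = 0.207), and Pdpr, with -0.36 (SE 0.14, 95% CI -0.65 to -0.06, adjusted p = 0.18). Without WT Ang/PE replicate 3 they were -0.32 and -0.24. Pdk4 had 0.58 (SE 0.50, 95% CI -0.47 to 1.63, adjusted p = 0.555), and -0.42 without that heart, so that a single heart set its direction.

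In labelled MCT1KO hearts Ang/PE against saline gave 0 of 7 members called by edgeR, while 4.46% of tested genes were called, and 0 of 7 by DESeq2, while 6.93% were called. The 1 member at an unadjusted p under 0.05, against 20.4% of tested genes (9.4% higher), was Pdk1, with 0.37 (SE 0.13, 95% CI 0.11 to 0.64, adjusted p = 0.0966), and it passed without labelled MCT1KO saline replicate 3 (0.44, adjusted p = 0.0455), as did 8.72% of tested genes. Atrial markers were called lower for 3 of 3 and adipocyte markers for 5 of 5 in this contrast. With atrial and adipocyte scores as covariates the Pdk1 value was 0.07 (adjusted p = 0.953) and 0% of tested genes were called. With the cardiomyocyte score the Pdk1 value was 0.18 (adjusted p = 0.277). Pdk4 had 0.38 (SE 0.49, 95% CI -0.65 to 1.40, adjusted p = 0.725). The interaction of genotype label with this step gave 0 of 7 members called by edgeR, against 0% of tested genes. DESeq2 called 0 of 6, giving Pdk3 no adjusted p, and 0.12% of the 10809 genes with one. There was 1 member at an unadjusted p under 0.05 against 13.5% of tested genes (7.48% higher). That was Pdpr, with 0.59 (SE 0.19, 95% CI 0.19 to 1.00, adjusted p = 0.294), and 0.19 with the cardiomyocyte score as a covariate.

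Ang/PE hearts were also set against hearts without a pump. In WT hearts edgeR and DESeq2 called 0 of 7 members, against 0% of tested genes and 0.24% of those with a DESeq2 adjusted p. Pdp1 alone had an unadjusted p under 0.05, against 9.02% of tested genes (5.11% lower), with a log2 fold change of -0.27 (SE 0.11, adjusted p = 0.484). In labelled MCT1KO hearts both tools called 0 of 7 members, against 0.503% of tested genes called by edgeR and 2.53% by DESeq2. Pdp2 alone had an unadjusted p under 0.05, against 13.1% of tested genes (6.09% lower), with -0.57 (SE 0.27, adjusted p = 0.361). Pdp1 was the 1 member whose groups did not overlap there, as for 3.96% of tested genes in this direction, with 44.6 to 50.1 CPM without a pump and 38.1 to 44.3 CPM with Ang/PE. Libraries without a pump were also deeper than those with Ang/PE. Over 25 hearts Pdp1 had r = 0.581 with the log2 total count, and 0.165 for deviations from the group means. The part of depth was not tested.

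**Figure D3:**
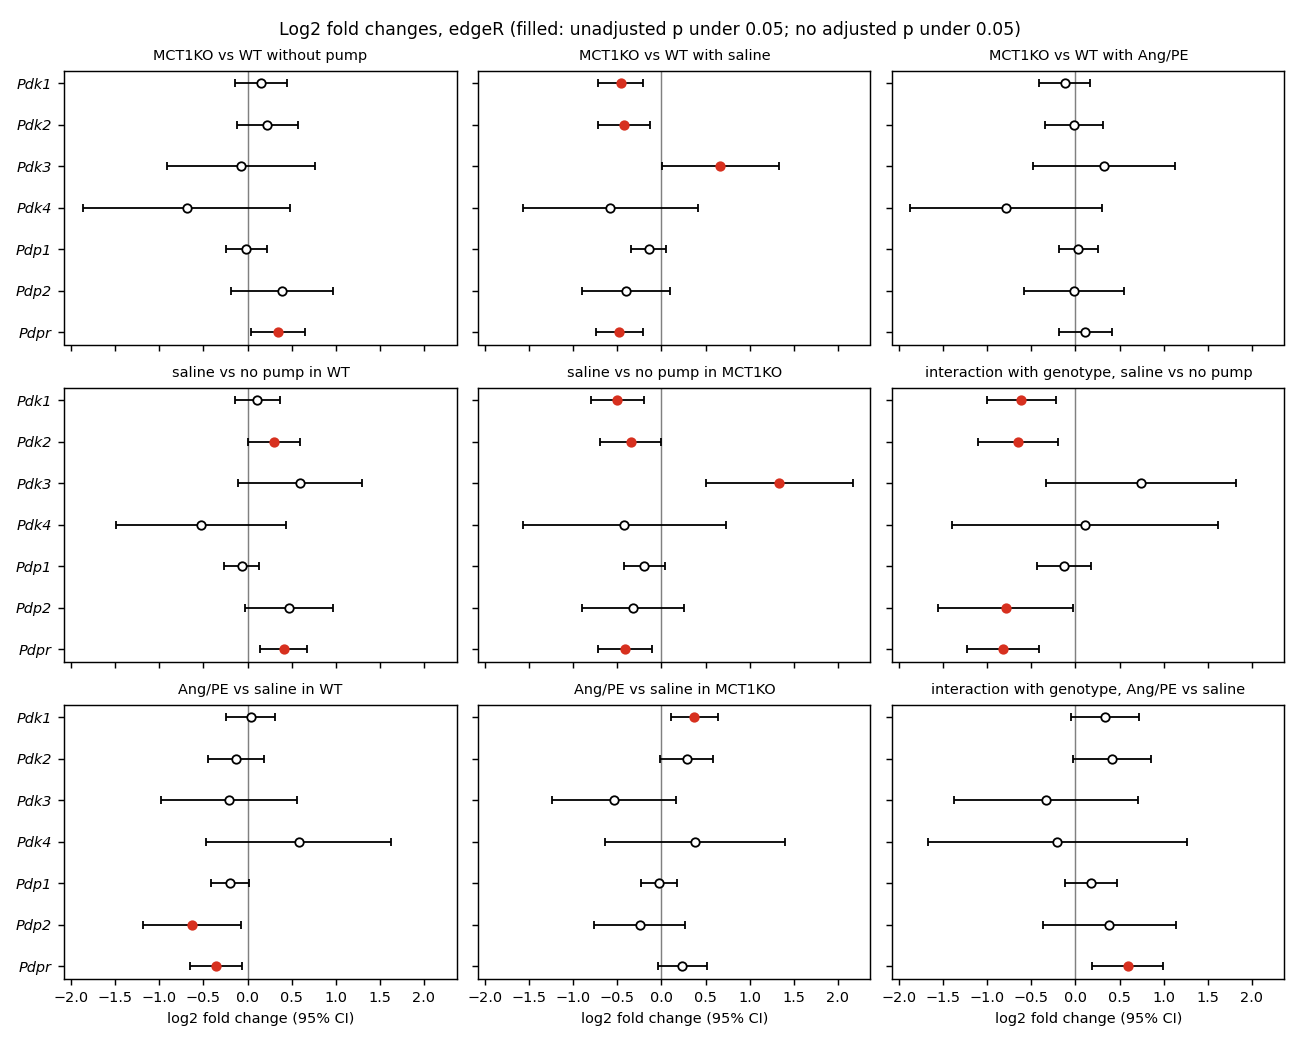
Log2 fold changes of the 7 members (x axis, with 95% confidence intervals) in 9 of the 11 comparisons, 1 panel each, from the edgeR model, MCT1KO as labelled. Filled points have an unadjusted p under 0.05, and no adjusted p is under 0.05. The widest intervals are those of Pdk4, the widest from -1.40 to 1.62 in the panel of the interaction with saline against no pump.

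Across the 25 hearts, Pdk2, Pdk1 and Pdpr were high or low together, and Pdp2 went with Pdpr and Pdk2, while the r of Pdk4 with these genes was at most 0.262. All 21 pairs of members were compared on log2 CPM with permutation tests, for which 1e-05 is the smallest p that 100000 permutations can give. Pdk2 and Pdpr, an inhibiting kinase and the regulator of the opposing phosphatase, had Pearson's r = 0.904 and Spearman's rho = 0.901 (permutation p = 1e-05 for both; adjusted p = 0.000105 and 7e-05, n = 25). The r was 0.884 without the 2 hearts farthest from the median and 0.907 for deviations from the group means, so the relation held within groups. Pdk1 and Pdk2 had r = 0.857 and rho = 0.823 (permutation p = 1e-05 for both, adjusted p = 0.000105 and 7e-05), with r = 0.827 without the 2 farthest hearts. Pdp2 and Pdpr had r = 0.761 and rho = 0.804 (permutation p = 2e-05 and 1e-05, adjusted p = 0.000105 and 7e-05), with r = 0.777 without the 2 farthest. Pdk1 and Pdpr had r = 0.757 and rho = 0.768 (permutation p = 2e-05 and 3e-05, adjusted p = 0.000105 and 0.000158), with r = 0.756 without the 2 farthest. Pdk2 and Pdp2 had r = 0.591 and rho = 0.714 (permutation p = 0.00168 and 0.00012, adjusted p = 0.00588 and 0.000504), with r = 0.623 without the 2 farthest. Pdk1 and Pdp2 were the 1 pair of these 4 genes whose r did not pass, with r = 0.357 and rho = 0.49 (permutation p = 0.0795 and 0.0128, adjusted p = 0.128 and 0.0384).

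Pdk3 had a negative r with each of the other 6 members, of which those with Pdk1 and Pdk2 passed. With Pdk1 it had r = -0.683 and rho = -0.511 (permutation p = 0.00027 and 0.0102, adjusted p = 0.00113 and 0.0357, n = 25), with r = -0.482 without the 2 farthest hearts and -0.672 for deviations from the group means. With Pdk2 it had r = -0.518 and rho = -0.391 (permutation p = 0.00799 and 0.0551, adjusted p = 0.024 and 0.0964), with r = -0.416 without the 2 farthest hearts. With Pdpr it had r = -0.437 and rho = -0.399 (adjusted permutation p = 0.0544 and 0.0956), and with Pdp2 r = -0.349 and rho = -0.318 (adjusted permutation p = 0.129 and 0.168). Pdk4 had r between -0.303 and 0.262 with the other 6 members, and no adjusted permutation p under 0.05. With Pdpr it had r = 0.00298 and rho = 0.0554 (permutation p = 0.989 and 0.792, adjusted p = 0.989 and 0.832).

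**Figure D4:**
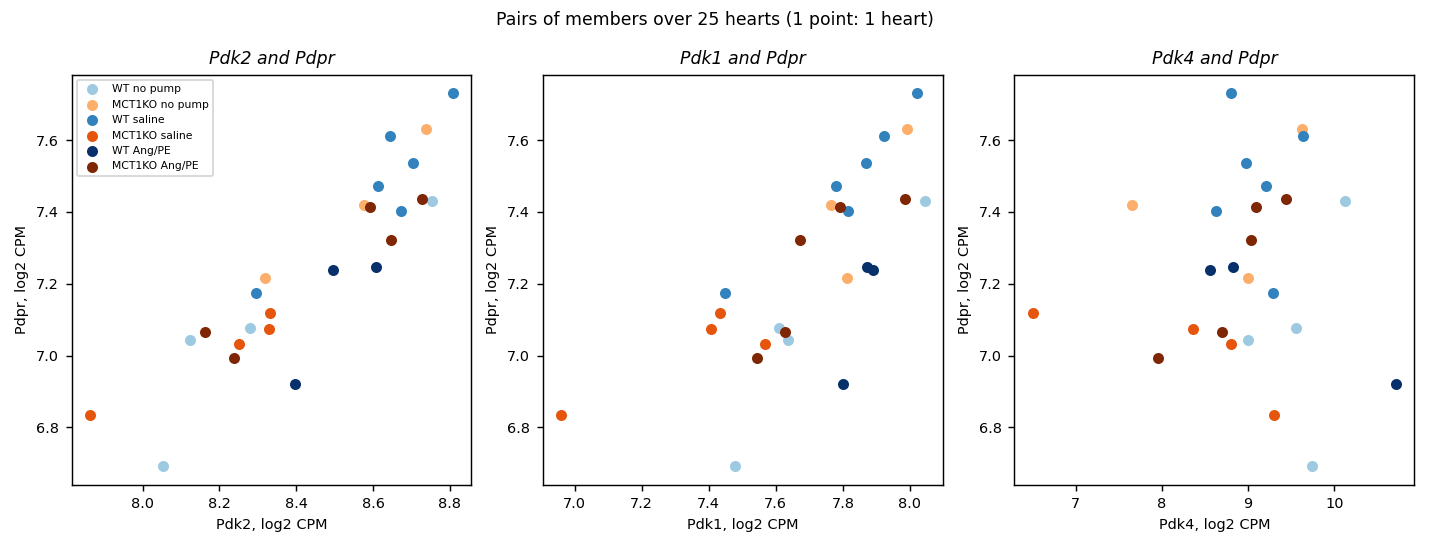
Log2 CPM of Pdpr (y axis) against Pdk2, Pdk1 and Pdk4 (x axes), with 1 point per heart coloured by group, MCT1KO as labelled. Points lie along a rising line for Pdk2 (r = 0.904) and Pdk1 (r = 0.757) and are scattered for Pdk4 (r = 0.00298).

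Pdk2, Pdpr, Pdk1 and Pdp2 were each high in hearts with more cardiomyocyte marker RNA. Myh6 was the largest part of the sum used here, and relations with single markers were not tested. The log2 of the summed CPM of the 5 cardiomyocyte genes was related to Pdk2 with r = 0.884 and rho = 0.859 (permutation p = 1e-05 for both, adjusted p = 0.00014 for both over 28 relations, n = 25). It was related to Pdpr with r = 0.877 and rho = 0.864 (permutation p = 1e-05 for both, adjusted p = 0.00014 for both). Without the 2 farthest hearts r was 0.819 and 0.830, and for deviations from the group means it was 0.890 and 0.862. For Pdk1 the values were r = 0.656 and rho = 0.615 (permutation p = 0.00033 and 0.00155, adjusted p = 0.00116 and 0.00394), with r = 0.462 without the 2 farthest hearts. For Pdp2 they were r = 0.628 and rho = 0.71 (permutation p = 0.00086 and 0.00011, adjusted p = 0.00234 and 0.00077), with r = 0.666 without them. For Pdk4 they were r = -0.151 and rho = -0.030 (permutation p = 0.473 and 0.887, adjusted p = 0.532 and 0.955). Endothelial markers went the same way for these 4 genes, with r from 0.537 (Pdp2) to 0.704 (Pdpr) and rho from 0.519 to 0.608 (permutation p from 7e-05 to 0.00852, adjusted p at most 0.0159), and r from 0.462 to 0.575 without the 2 farthest hearts. Fibroblast markers went the opposite way, with r from -0.605 (Pdk1) to -0.682 (Pdp2) and rho from -0.667 to -0.714 (permutation p from 8e-05 to 0.00139, adjusted p at most 0.00324), and r from -0.55 to -0.671 without the 2 farthest. Leukocyte markers also went the opposite way for Pdk2 (r = -0.682, rho = -0.691), Pdpr (r = -0.637, rho = -0.669) and Pdk1 (r = -0.58, rho = -0.672), with permutation p from 0.00016 to 0.00238, adjusted p at most 0.00508, and r from -0.595 to -0.696 without the 2 farthest. For Pdp2 they had r = -0.372 and rho = -0.397 (adjusted permutation p = 0.0987 and 0.0747). Pdk3 went the other way with fibroblast markers (r = 0.536, rho = 0.445, adjusted permutation p = 0.0105 and 0.0453). It also did so with endothelial markers (r = -0.505, rho = -0.482, adjusted permutation p = 0.0159 and 0.0262). As a description without a p, Pdk3 had a larger r with the smooth muscle sum, 0.796 (rho = 0.708, and r = 0.747 for deviations from the group means). With the hepatocyte sum it had r = -0.623 (rho = -0.69), also without a p. Pdp1 had r = -0.443 and rho = -0.435 with fibroblast markers (adjusted permutation p = 0.0409 and 0.0468). The part of these marker levels in the relations between members was not tested.

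**Figure D5:**
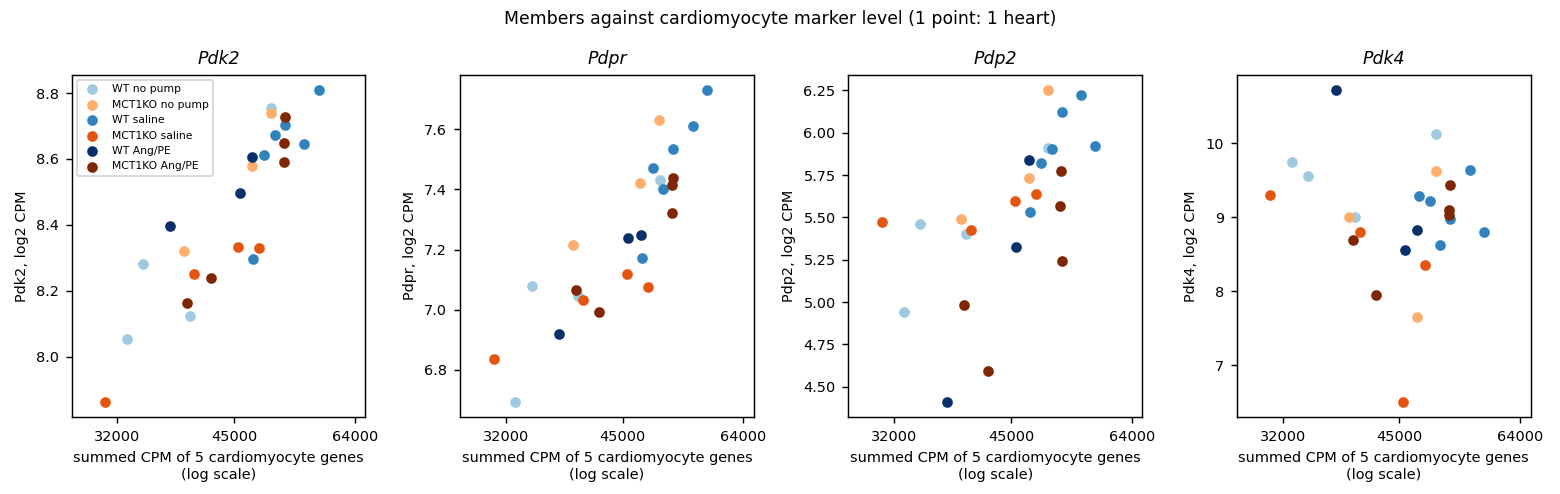
Log2 CPM of Pdk2, Pdpr, Pdp2 and Pdk4 (y axes) against the summed CPM of 5 cardiomyocyte genes (x axes, log scale), with 1 point per heart coloured by group, MCT1KO as labelled. Pdk2 (r = 0.884) and Pdpr (r = 0.877) rise with the markers, Pdp2 (r = 0.628) less tightly, and Pdk4 (r = -0.151) does not.

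Pdk4 went with listed genes of fatty acid handling. Relations of these genes with the other members were not tested, so the pattern is not shown to be particular to Pdk4. Of the 15 PPAR target genes listed, all 15 had a positive r with Pdk4 (median 0.457, range 0.188 to 0.63), where 48.5% of the 17681 other tested genes were positive (median -0.0115). Over 36 relations, 5 had an adjusted permutation p under 0.05 for r, and all were PPAR targets. Outside these relations, and without a p, Pdk4 had r = 0.529 with the percentage of counts on mitochondrially encoded genes (rho = 0.454). For deviations from the group means that r was 0.507. Angptl4, a secreted inhibitor of lipoprotein lipase, had r = 0.63 and rho = 0.607 (permutation p = 0.00092, adjusted p = 0.0305 and 0.0281, n = 25), and r = 0.666 without the 2 farthest hearts. Cd36, the fatty acid transporter of the cell surface, had r = 0.563 and rho = 0.548 (permutation p = 0.00259, adjusted p = 0.0305 and 0.0362), and 0.661 without them. Plin5, a coat protein of lipid droplets, had r = 0.567 and rho = 0.548 (permutation p = 0.00346, adjusted p = 0.0305 and 0.0362), and 0.707 without them. Mlycd, which breaks down malonyl-CoA, had r = 0.548 and rho = 0.539 (permutation p = 0.00423, adjusted p = 0.0305 and 0.0362), and 0.633 without them. Acot1, an acyl-CoA thioesterase, had r = 0.608 and rho = 0.577 (permutation p = 0.00181, adjusted p = 0.0305 and 0.0328), but 0.38 without the 2 farthest hearts. Plin2, also a listed PPAR target, passed for rho alone, with rho = 0.678 (permutation p = 0.00029, adjusted p = 0.0104). Its r was 0.47 (permutation p = 0.0312, adjusted p = 0.112), and 0.672 without the 2 farthest hearts. For deviations from the group means r was 0.679 for Angptl4, 0.737 for Acot1, 0.424 for Cd36, 0.38 for Plin5 and 0.483 for Mlycd.

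The hearts at the ends of the Pdk4 range show this pattern in part, as given here for Angptl4, Cd36, Plin5 and Mlycd. Values by heart were not read for Acot1. WT Ang/PE replicate 3, with 1681 CPM of Pdk4, held 29.8 CPM of Angptl4 and 1888 CPM of Cd36, above the medians over hearts of 7.002 and 1373 CPM. Its Plin5 and Mlycd, at 96.3 and 84.3 CPM, were below their medians of 104 and 87.7 CPM. Labelled MCT1KO saline replicate 1, with 90.6 CPM of Pdk4, held 3.43 CPM of Angptl4, 922 CPM of Cd36, 64.1 CPM of Plin5 and 60.4 CPM of Mlycd, all below the medians. Labelled MCT1KO saline replicate 4, the heart with most adipocyte marker RNA, had 631 CPM of Pdk4, above the median of 512 CPM. It held the most Angptl4 of all hearts, 48.8 CPM, but the least Cd36, Plin5 and Mlycd, at 794, 52.3 and 57.9 CPM. Without WT Ang/PE replicate 3, r was 0.583 for Angptl4, 0.542 for Cd36, 0.637 for Plin5 and 0.627 for Mlycd. No such r was computed without labelled MCT1KO saline replicate 4.

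None of the 12 regulators of Pdk genes listed had an adjusted permutation p under 0.05 with Pdk4: their r ran from -0.41 to 0.246 (median -0.0509), with -0.108 for Ppara and 0.246 for Foxo1. Their levels are transcripts and not activities. The 9 glucocorticoid and FOXO targets had r from -0.294 to 0.467 (median 0.27), with 6 of 9 positive and none with an adjusted permutation p under 0.05.

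The genes most like each member across the 25 hearts, among 11690 compared, are a description by Pearson's r alone. For Pdk2 they included Pmpca (0.958) and Me3 (0.944), which encode a mitochondrial presequence protease subunit and a mitochondrial malic enzyme. For Pdpr they were Pgm1 (0.947), Cs (0.944) and Opa1 (0.939), of which Cs encodes citrate synthase and Opa1 a protein of inner membrane fusion. For Pdk1 they were Rab12 (0.924), Stau2 (0.923) and Cdnf (0.923), and for Pdp2 Fitm2 (0.895), Phlpp1 (0.893) and Scn4a (0.880). For Pdk3 they were Pam (0.915), a peptide-amidating enzyme abundant in atrial muscle, Tro (0.900) and Ptgfrn (0.894). Pdk4 had a less close best match, Dctn6 (0.812), a dynactin subunit whose own range was only 20.9 to 30.4 CPM, followed by Tmed5 (0.694) and mt-Tt (0.691). Pdp1 was matched by Rit1 (0.746), Fgf9 (0.736) and Car8 (0.733).

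The complex itself and its lists of related genes were tested in the same model. Among 11 comparisons, calls in these lists were made in WT saline against no pump and in labelled MCT1KO Ang/PE against saline. In WT saline against no pump, where 6.61% of all tested genes were called, 1 of 5 subunit genes of the complex fell: Dld, the dihydrolipoamide dehydrogenase shared with other ketoacid dehydrogenases, from 384 ± 23.4 CPM in 4 hearts to 286 ± 35.7 CPM in 6 hearts, with -0.43 on the log2 scale (SE 0.13, edgeR adjusted p = 0.0489). Of the 3 genes that attach lipoate to such complexes, Lipt1 fell (-0.47, SE 0.13, adjusted p = 0.0349). Of the 15 PPAR targets, Cd36 fell from 2222 ± 149 to 1341 ± 121 CPM (-0.73, SE 0.19, adjusted p = 0.0263). Of the 9 glucocorticoid and FOXO targets, Fkbp5, a classical glucocorticoid target, fell from 86.6 ± 57.4 to 22.8 ± 3.61 CPM (-1.93, SE 0.55, adjusted p = 0.0418). Of the 9 hypoxia-inducible factor targets, Bnip3, a mitophagy receptor, fell from 154 ± 22.1 to 93.9 ± 12.5 CPM (-0.72, SE 0.16, adjusted p = 0.0135). The list medians were -0.01 for the complex, -0.05 for lipoate attachment, -0.03 for PPAR targets, -0.52 for glucocorticoid and FOXO targets and 0.12 for hypoxia targets, against 0.00 over all tested genes. These 5 calls ended with atrial and adipocyte scores as covariates, when Dld had -0.12, Lipt1 -0.21, Cd36 -0.31, Fkbp5 -0.96 and Bnip3 -0.41, and with the clock score. They also ended with GC and length offsets, when Dld had -0.19, Lipt1 -0.34, Cd36 -0.46, Fkbp5 -2.01 and Bnip3 -0.44. Over 12 alternatives Dld and Fkbp5 were called in 4, Lipt1 and Cd36 in 5 and Bnip3 in 8, and over 25 fits that left out a heart they were called in 9, 15, 19, 19 and 24. None of the 5 genes of the branched-chain ketoacid dehydrogenase and its kinase and phosphatase, or of the 12 regulators, was called there.

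In labelled MCT1KO hearts, Ang/PE against saline gave 1 call among these lists, the angiogenic factor Vegfa of the hypoxia list, which rose from 222 ± 40.9 CPM (n = 4) to 302 ± 36.9 CPM (n = 5), with 0.44 (SE 0.11, adjusted p = 0.0248, edgeR), against 4.46% of all tested genes called. It was called in 8 of 12 alternatives, and had 0.14 with atrial and adipocyte scores and 0.30 with the clock score as covariates, without a call in either. In the labelled MCT1KO against WT comparison with saline, where Pdk1, Pdk2 and Pdpr had their lowest means, 0 of 5 genes of the complex were called by edgeR. The largest values there were Pdhx, the structural subunit that binds Dld, with -0.42 (SE 0.12, adjusted p = 0.149), and Dlat, the acetyltransferase core, with -0.31 (SE 0.12, adjusted p = 0.199). The median of the complex was -0.28 and that of the PPAR targets -0.33, against 0.03 over all tested genes.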

How the data were processed

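RNA was measured in 25 mouse hearts. The deposited values are raw read counts per gene, made by the authors, in 1 table with 1 column per heart. Per the submitters' processing notes, cutadapt 1.16, STAR 2.7.9a, featureCounts 1.6.3 and DESeq2 1.42.1 were used with GRCm39. The annotation release and the strand and multi-mapping settings are not given in the sources used here, so reads of overlapping genes may be shared. Groups came from the titles and characteristics, and 0 columns were left unmatched. Genes without a symbol hold 0.778% of the counts.

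Counts were tested with edgeR 4.0.16 (R 4.3.3): filterByExpr by group, TMM, then glmQLFit (robust) and glmQLFTest with 6 group means over all hearts (19 residual degrees of freedom). The 11 comparisons were two-sided, with Benjamini-Hochberg adjustment over 17682 genes in each, and a threshold of 0.05. CPM are counts scaled to TMM-normalised library size, log2 CPM add a prior count of 2, and CPM per kb use GENCODE M21 union exon length (GRCm38). Relations over hearts used 100000 permutations, adjusted within families of 21, 28 and 36. Relations with the atrial and adipocyte sums, which fall into separate clusters of hearts, were left out. Those with the smooth muscle, skeletal muscle and hepatocyte sums were not tested by permutation either. No 2 libraries of a group agreed within sampling noise (lowest chi-square per degree of freedom 3.33). The scripts were tested on simulated data.

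Named genes were all 7 members, Slc16a1, the 3 genes most alike to each member (1 of those for Pdk2 is not reported here), and list genes past the threshold or otherwise the 2 of largest change. Members and lists were chosen with earlier results of these data known. Tests between groups of the endothelial (3 genes), smooth muscle (3), leukocyte (3), skeletal muscle (4, of which 2 were tested) and hepatocyte (2) lists are not described above. They gave 1 call in the comparisons described, Cd68 lower in WT saline against no pump (edgeR adjusted p = 0.0204), and 0 of 4 fibroblast genes were called. Alternatives were RLE scaling, DESeq2 1.42.0, no filter, only the groups compared, a replicate block, GC and length offsets (mgcv 1.9.3) with and without that block, no mitochondrially encoded genes, covariates for Xist, atrial and adipocyte scores and a clock score, leaving out each heart, and, chosen after seeing the data, a cardiomyocyte score.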

Additional observations from a re-analysis of the deposited data

How the results depend on the processing

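Of 77 pairs of a member and a comparison, 43 kept the sign of their fold change under all 12 alternatives and with each of the 25 hearts left out, and 34 turned in at least 1 fit. The number of members called, 0 throughout in the edgeR model, became 1 with DESeq2 in labelled MCT1KO against WT with saline, in WT saline against no pump and in the interaction of genotype label with saline, where it called 141, 1949 and 371 of all genes. With the cardiomyocyte score it became 1 in WT saline against no pump (Pdk3, 1.00, adjusted p = 0.0433; 6.14% of all tested genes). Leaving out single hearts gave 0 to 1 called members with saline between genotypes and in labelled MCT1KO Ang/PE against saline, 0 to 2 in saline against no pump in either genotype, and 0 to 3 in the saline interaction. In WT saline against no pump, Pdpr was called without WT no pump 1, WT saline 6, MCT1KO saline 3, MCT1KO saline 4 or MCT1KO Ang/PE 2, with adjusted p from 0.0108 to 0.0496, against 4.95% to 12.7% of tested genes. Among the values printed for members, signs turned for Pdk3 between genotypes with saline (-0.041, cardiomyocyte score), for Pdk3 in labelled MCT1KO saline against no pump (-0.036, atrial and adipocyte scores), and for Pdk4 in labelled MCT1KO Ang/PE against saline (-0.038, clock score), and among others for Pdp2 between genotypes with saline (up to 0.043) and Pdk1 and Pdk2 in the Ang/PE interaction (down to -0.052 and -0.053). Leaving out 1 heart moved Pdk4 between -1.14 and 0.21 between genotypes with Ang/PE, between -0.42 and 0.93 in WT Ang/PE against saline (0.21 and -0.42 without WT Ang/PE 3), and between -0.79 and 0.071 in labelled MCT1KO saline against no pump (0.071 without MCT1KO no pump 2). The causes were not tested. Pdk3 rested on 22 to 146 counts per heart.

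With replicate number as a block, the members called were 2 between genotypes with saline (Pdk1 -0.56, adjusted p = 0.0483; Pdpr -0.57, adjusted p = 0.0492; 0.65% of tested genes), again 2 with GC and length offsets added (both -0.58, adjusted p = 0.0498; 93 genes in all), and 1 in WT saline against no pump (Pdpr 0.51, adjusted p = 0.045; 2.98%), which was lost with the offsets (0 members, 0.0735%). No other member's call changed, and of the list genes the block ended the calls of Dld, Lipt1, Cd36, Fkbp5 and Ryr2. Hearts with the same number share only that number: over 52 same-number pairs the mean correlation of deviations was 0.0128 (range -0.394 to 0.403), and in no comparison did every heart correlate best with its own number.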
